A study of Mus musculus with 6 samples.

Results

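The beta-2 integrins are the adhesion receptors of leukocytes, and 6 of the 17382 genes in the deposited table are described here. They are the 4 alpha chains Itgad (CD11d), Itgam (CD11b), Itgax (CD11c) and Itgal (CD11a), their shared beta chain Itgb2 (CD18), and the ligand Icam1. They were picked by gene name, with earlier results on the genotype comparison known. Itgad in particular is among 46 genes (0.265%) that the authors' deposited table calls at an adjusted p-value under 0.05, and 1 of the 4 called lower in the knockout. Their values between genotypes are therefore a description and carry no test. All 6 passed the filter on low values, which was 0.1 TPM in 3 or more libraries.

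The libraries come from myeloid cells that were grown out of the marrow of C57BL/6 mice aged 2 months. Both genotypes are PD-L1 flox/flox: they carry floxed alleles of Cd274, the gene of PD-L1, which restrains T cells through their receptor PD-1. Mice of the first group, labelled CKO, also carry lysozyme-Cre (n = 3 libraries), and their WT littermates carry PD-L1 flox/flox without Cre (n = 3 libraries). Lysozyme-Cre is active mainly in macrophages, their precursors and neutrophils, and in the widely used line of that name Cre sits in the Lyz2 gene. The medium held 10% serum and M-CSF at 40 ng/mL, which drives macrophage growth, and the culture lasted 3 days. The design text states biological triplicates; whether each library is 1 animal is not given in the sources used here, and any p-value below measures the spread between these libraries.

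A beta-2 integrin is made of 1 alpha and 1 beta chain, and an alpha chain without Itgb2 does not reach the cell surface. Itgal with Itgb2 forms LFA-1, which binds ICAM proteins on other cells; Itgam with Itgb2 forms Mac-1, or complement receptor 3, which binds the complement fragment iC3b, fibrinogen and ICAM-1. Itgax with Itgb2 forms complement receptor 4 and is widely used to mark dendritic cells, and Itgad with Itgb2 is best known from macrophages of the splenic red pulp. Binding is switched on from inside the cell, when talin and kindlin-3 attach to the tail of the beta chain, and engaged receptors signal through Src-family kinases and Syk.

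The 3 libraries labelled CKO held 60.6 to 73.5 and the 3 labelled WT 52.4 to 77.3 in units of 1000000 reads, as recovered from the TPM values (reads per gene length, scaled to 1000000 per library). In each library 11525 to 11680 genes reached 1 TPM. The targeted gene, Cd274, was not reduced under the CKO label, with 19.3, 19.2 and 29.2 TPM. Libraries labelled WT had 17.9, 15.5 and 23.7 TPM, so CKO and WT below are labels. The values are per gene, so reads from the floxed part of Cd274 were not looked at on their own. The cultures held macrophage RNA: Csf1r, the M-CSF receptor, was at 815 to 1448 TPM in CKO and 1042 to 1525 TPM in WT, and Emr1, which encodes F4/80, at 725 to 997 TPM in CKO and 794 to 1068 TPM in WT. The first principal component took 44.3% of the variance and divided the libraries across the labels, with CKO 1, CKO 2 and WT 3 on one side and CKO 3, WT 1 and WT 2 on the other. CKO 3 and WT 3 thus each stood with libraries of the other label. Lyz2, which holds Cre in the widely used line, was lower in every library labelled CKO (13232 to 19354 TPM) than in every one labelled WT (26707 to 40358 TPM). Whether a label is wrong was not tested. Differences between genotypes within each side stand beside the pooled ones below.

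The alpha chain genes Itgam, Itgax and Itgad lie in this order on the plus strand of mouse chromosome 7 (mm10), 11076 and 23288 bases apart, and Itgal lies 727502 bases before Itgam. Itgad spans 128173946 to 128205503 and has 31 exons in the GENCODE M21 transcript used. Itgax spans 128129568 to 128150657 and Itgam 128062640 to 128118491. The coding sequences of Itgad and Itgax, aligned over 3438 bases, were identical at 74.0% of positions, while Itgad and Itgam were identical at 66.2% and Itgad and Itgal at 61.2%. Identity between Itgad and Itgax was gathered in places. The longest run of identical bases was 188 for Itgad and Itgax, 16 for Itgad and Itgam and 15 for Itgad and Itgal. The stretch that holds this run is printed because reads from it could come from either gene. It is 248 spliced coding bases, 5′ to 3′, from exons 12 to 14 of Itgad (coding positions 1294 to 1541, chr7:128189310-128189819 with introns) and from exons 11 to 13 of Itgax (coding positions 1171 to 1418, chr7:128135582-128136092 with introns), with the matching stretch of Itgam (exons 11 to 13, chr7:128085624-128101471 with introns) for comparison. Capitals mark bases that differ from Itgad.
Itgad: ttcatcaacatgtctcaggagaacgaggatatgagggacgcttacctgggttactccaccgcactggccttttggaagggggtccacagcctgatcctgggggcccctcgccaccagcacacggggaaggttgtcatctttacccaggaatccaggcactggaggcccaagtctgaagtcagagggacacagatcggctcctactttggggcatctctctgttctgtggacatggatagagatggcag
Itgax: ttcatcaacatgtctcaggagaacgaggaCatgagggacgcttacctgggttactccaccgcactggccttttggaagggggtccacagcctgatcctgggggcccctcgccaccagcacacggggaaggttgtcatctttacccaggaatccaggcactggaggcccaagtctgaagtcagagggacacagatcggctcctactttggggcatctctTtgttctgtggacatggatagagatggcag
Itgam: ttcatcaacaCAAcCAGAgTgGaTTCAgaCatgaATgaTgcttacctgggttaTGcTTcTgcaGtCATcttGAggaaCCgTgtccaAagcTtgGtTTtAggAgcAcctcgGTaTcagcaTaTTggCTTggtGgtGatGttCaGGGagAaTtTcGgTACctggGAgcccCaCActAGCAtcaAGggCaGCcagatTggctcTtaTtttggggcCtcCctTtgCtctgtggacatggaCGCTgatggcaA
In this stretch Itgax differed from Itgad at 2 of 248 bases and Itgam differed at 88. Over the whole transcript, 384 of the 3916 stretches of 50 bases in Itgad (9.81%) also occurred in Itgax, and none of those in Itgal or Icam1 occurred in another gene. Of the 3652 stretches in Itgam, 91.8% also occurred in Gm49368, a GENCODE gene that overlaps Itgam and is not analysed here, and 1.16% of those in Itgb2 occurred in Gm14699. The sources used here do not say how reads that match more than 1 gene were counted. The Itgad and Itgax values are uncertain by what all 384 shared stretches contribute, some of which lie outside the printed part. The level of Itgam, with its share of the alpha chains, is uncertain by whether Gm49368 was counted as a gene of its own.

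Itgad was lower in every CKO library than in every WT library. It had 0.878, 1.03 and 0.551 TPM in CKO 1, 2 and 3, against 1.70, 2.16 and 2.26 TPM in WT 1, 2 and 3. The groups did not overlap, and CKO 3 was the lowest of all. The means were 0.820 ± 0.245 TPM in CKO and 2.04 ± 0.295 TPM in WT (SD, n = 3 each), which makes the CKO mean 0.402 of the WT mean. On the log2(TPM + 0.1) scale, where the pseudocount shrinks changes of low genes, the difference was -1.25 ± 0.25 (SE, CKO minus WT). It was -1.16 between the libraries of one side of the principal component and -1.63 on the other, between -1.41 and -1.01 with any library left out, and -0.94 without CKO 3 and WT 3 together. The separation holds for the labels as given: if those of CKO 3 and WT 3 were exchanged, the groups would overlap. Nonoverlapping groups were seen for 5.12% of the 13722 genes tested, and for 2.27% with CKO lower; of the members, Itgad alone had them. In the authors' deposited table the log2 fold change of Itgad is -1.31 with an adjusted p-value of 0.0194. That table calls 4 of 17382 genes (0.023%) lower in CKO, the others being Lyz2, Col14a1 and Vsig4. The limma and limma-voom fits used here called 0 of the 13722 genes tested at an adjusted p-value under 0.05.

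**Figure D1:**
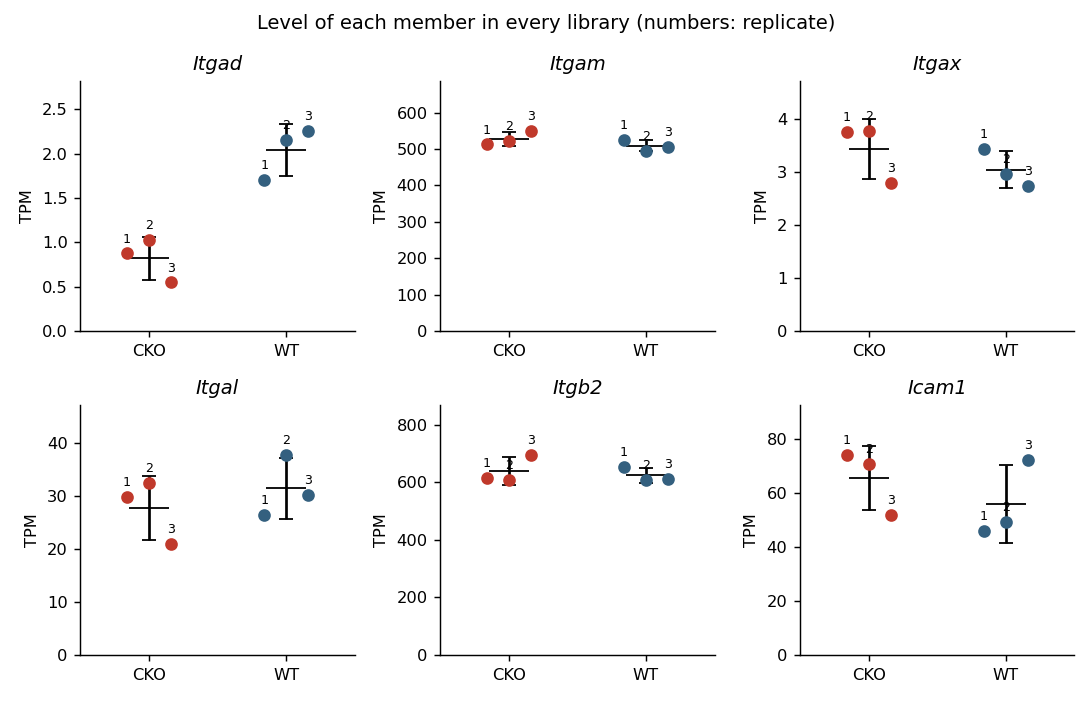
TPM of each member in every library (points, numbered by replicate; each axis is linear, starts at 0 and has its own range), with the group mean as a horizontal line and the SD as whiskers, CKO left of WT. For Itgad the CKO libraries, 0.551 to 1.03 TPM, lie below the WT libraries, 1.70 to 2.26 TPM; for the other members the groups overlap.

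Itgad rested on few reads. The read numbers recovered from the TPM values were 103, 112 and 53 in CKO and 143, 266 and 256 in WT. Per 1000000 reads (CPM) these are 1.40 (95% exact Poisson interval 1.15 to 1.70), 1.65 (1.36 to 1.99) and 0.875 (0.655 to 1.14) in CKO. In WT they are 2.73 (2.30 to 3.22), 3.44 (3.04 to 3.88) and 3.63 (3.20 to 4.11). No interval of a CKO library reached that of a WT library; the intervals cover counting error only. Itgax, whose sequence is nearest, had 449, 417 and 273 reads in CKO and 293, 371 and 317 in WT, or 6.11, 6.14 and 4.51 CPM in CKO and 5.60, 4.80 and 4.50 CPM in WT. Its groups overlapped, with CKO 3 near WT 3.

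**Figure D2:**
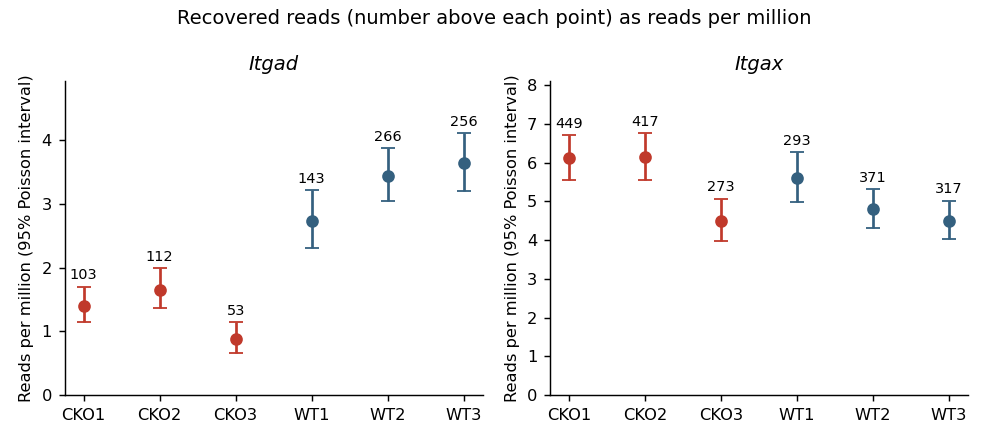
Reads per 1000000 reads (CPM) of Itgad and Itgax in each library, CKO left of WT, with exact 95% Poisson intervals as whiskers. The Itgad intervals of CKO, up to 1.99, end below those of WT, which start at 2.30, while the Itgax values of the groups overlap.

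The pooled genotype differences of the most abundant chains, Itgam and Itgb2, were smaller than their standard errors. Itgam had 513, 521 and 549 TPM in CKO and 525, 495 and 506 TPM in WT, a log2 difference of 0.05 ± 0.08. Itgb2, at 77530348 to 77565674 on chromosome 10, had 616, 608 and 695 TPM in CKO and 654, 607 and 610 TPM in WT. Its log2 difference was 0.03 ± 0.09. Within the sides of the principal component the differences were 0.03 and 0.11 for Itgam, and 0.003 and 0.14 for Itgb2. The groups overlapped for both genes, and CKO 3 was the highest library for both. Over all 6 libraries Itgam spanned 0.15 on the log2 scale, against 1.86 for Itgad. Without CKO 3 the Itgb2 difference changed sign, to -0.03.

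Itgam made up nearly all alpha chain RNA. Of the summed TPM of the 4 alpha chains, Itgam took 93.4% to 95.8% in CKO and 92.0% to 94.4% in WT, and Itgal took 4.96% ± 1.16 in CKO and 5.77% ± 1.15 in WT (SD, n = 3 each). Itgad took 0.160%, 0.185% and 0.0960% in CKO, against 0.306%, 0.401% and 0.417% in WT. The alpha chain sum was 547 to 573 TPM in CKO and 538 to 557 TPM in WT, and per unit of Itgb2 it was 0.877 ± 0.0478 in CKO and 0.875 ± 0.0202 in WT. These ratios overlapped between the groups. Set against Itgax, Itgad was 23.3%, 27.3% and 19.7% of the Itgax level in CKO and 49.6%, 72.8% and 82.0% in WT, with no overlap.

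Itgax and Itgal varied between libraries without separating the genotypes. Itgax had 3.77, 3.78 and 2.79 TPM in CKO and 3.44, 2.96 and 2.75 TPM in WT. Its log2 difference was 0.16 ± 0.17, but 0.44 on one side of the principal component and -0.19 on the other. Itgal, at 127296260 to 127335137 on chromosome 7, had 29.8, 32.3 and 20.8 TPM in CKO and 26.4, 37.7 and 30.2 TPM in WT. CKO 3 and WT 1 were its low libraries. Its log2 difference was -0.19 ± 0.20, with 0.04 and -0.59 on the sides; without CKO 3 it was near 0.

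Icam1 followed the division of the libraries and not the labels. This gene, at 21015960 to 21028796 on chromosome 9, encodes the shared ligand of LFA-1 and Mac-1, and is known to be induced by NF-kB. It had 74.2, 70.7 and 52.0 TPM in CKO and 46.0, 49.3 and 72.4 TPM in WT. CKO 1, CKO 2 and WT 3 were high and CKO 3, WT 1 and WT 2 low. The log2 difference was 0.24 ± 0.21 over all libraries, and 0.0009 and 0.13 within the sides. Without CKO 3 and WT 3 together it was 0.60 for Icam1, and 0.02 for Itgam, 0.23 for Itgax, -0.02 for Itgal and -0.04 for Itgb2.

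Promoters are printed for Itgam, Itgax and Icam1, to show what precedes genes whose levels differ widely; 3 of the 6 members matched the RefSeq table (GRCm38.p6), the others being Itgad, Itgal and Itgb2. Each is the plus strand, 5′ to 3′, from 250 bases before to 50 after the annotated start. Capitals mark matches on either strand to 2 motifs: GAGGAA, a core bound by the myeloid factor PU.1, and GGAAATTCC, of the NF-kB type.
Itgam, chr7:128062390-128062689: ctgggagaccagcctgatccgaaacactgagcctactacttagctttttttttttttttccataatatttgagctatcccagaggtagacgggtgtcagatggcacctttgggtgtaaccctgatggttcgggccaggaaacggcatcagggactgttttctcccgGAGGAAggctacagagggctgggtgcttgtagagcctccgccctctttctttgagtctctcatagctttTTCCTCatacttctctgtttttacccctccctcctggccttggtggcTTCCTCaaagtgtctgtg
Itgax, chr7:128129300-128129599: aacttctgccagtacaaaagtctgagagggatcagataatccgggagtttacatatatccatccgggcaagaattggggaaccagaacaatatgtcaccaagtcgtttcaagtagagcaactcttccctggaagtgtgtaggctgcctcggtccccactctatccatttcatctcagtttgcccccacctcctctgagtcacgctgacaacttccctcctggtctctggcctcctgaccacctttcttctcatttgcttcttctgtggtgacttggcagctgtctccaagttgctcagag
Icam1, chr9:21015690-21015989: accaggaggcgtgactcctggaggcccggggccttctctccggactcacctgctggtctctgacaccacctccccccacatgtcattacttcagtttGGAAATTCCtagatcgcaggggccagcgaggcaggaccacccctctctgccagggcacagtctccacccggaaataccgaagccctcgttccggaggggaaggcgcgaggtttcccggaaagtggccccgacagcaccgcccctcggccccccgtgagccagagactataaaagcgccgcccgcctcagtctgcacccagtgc
Itgam held 3 matches to GAGGAA, 1 on the plus strand and 2 on the minus strand; 28.3% of 32851 such windows held at least 1. Icam1 held GGAAATTCC, found in 0.317% of windows. No 2 matches overlapped. The Itgax window held neither motif. A match describes letters and not a bound site.

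Per length, the 6 genes spanned a wide range of levels in the same order in all libraries. The order of mean levels from high to low, taken from these same values, was Itgb2, Itgam, Icam1, Itgal, Itgax and Itgad. Itgb2 stood above Itgam by 0.28 ± 0.04 on the log2(TPM + 0.1) scale (SD over 6 libraries), Itgam above Icam1 by 3.12 and Icam1 above Itgal by 1.03 ± 0.37. Itgal stood above Itgax by 3.13 and Itgax above Itgad by 1.27 ± 0.81. Each step had the same sign in 6 of 6 libraries. The exact two-sided paired permutation test gave p = 0.03125 for each, the smallest that 6 libraries allow, and the same after Benjamini-Hochberg adjustment over the 5 neighbouring pairs. Since the pairs come from the order itself, the test says no more than that each sign held in every library. The step from Itgax to Itgad was the most variable, between 0.275 in a WT library and 2.15 in a CKO library.

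Of the genes around it on the chromosome, Itgad had the lowest CKO level relative to WT. Of 15 genes within 250 kb of its start, Itgad included, 13 were tested, and 2 of them, Itgad itself and Tgfb1i1, had groups that did not overlap, against 5.12% of all genes tested; Itgad was chosen for that difference. Tgfb1i1, which encodes the focal adhesion protein Hic-5 and starts 72866 bases downstream, had 0.675, 0.757 and 0.475 TPM in CKO and 1.05, 0.832 and 1.002 TPM in WT, a log2 difference of -0.54 ± 0.21. Cox6a2, on the other strand, shares 69 bases with the end of Itgad; it had 2.67, 3.21 and 11.4 TPM in CKO and 5.30, 3.85 and 3.60 TPM in WT, high in CKO 3 where Itgad was lowest. The antisense gene 4931431B13Rik inside Itgad was at 0.174 TPM or less in every library. The kit keeps the strand, but the counting options are not given, so reads of overlapping genes may be mixed.

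**Figure D3:**
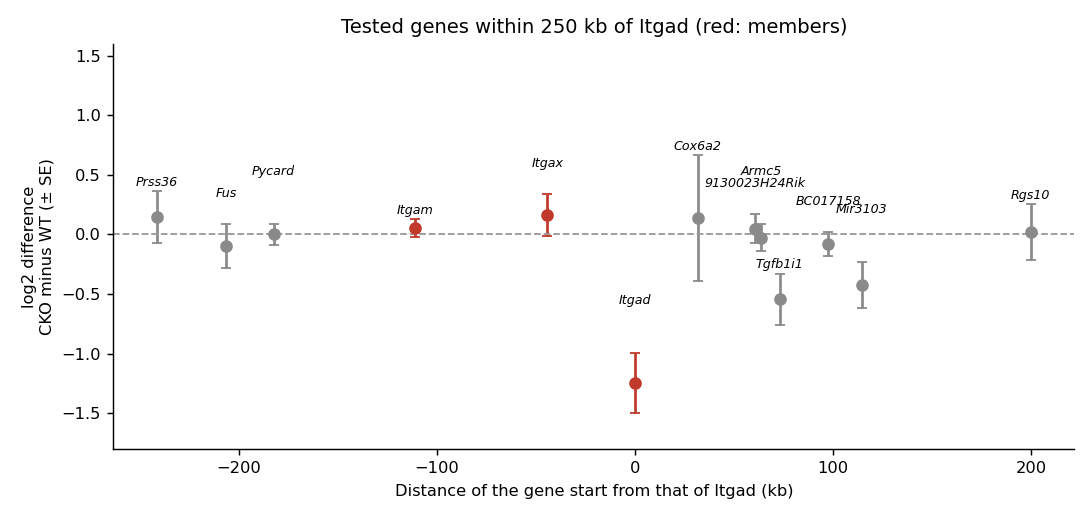
Log2 difference between CKO and WT with its SE for the 13 tested genes within 250 kb of Itgad, against the distance of their starts from that of Itgad in kb; members are red. Itgad, at -1.25, is lowest, and the flanking Itgax and Itgam, at 0.16 and 0.05, lie near the dashed line at 0.

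The profile of Itgad over the 6 libraries was most like that of Lyz2. Likeness was the root mean square distance between log2(TPM + 0.1) profiles, each centred on its own mean. It was taken over 10612 genes with a mean of at least 1 TPM, and the median distance was 0.70. The members were left out, as were unnamed genes, small RNAs and pseudogenes by a pattern in the name. That pattern also removed every symbol that starts with Rn. The 5 nearest were Lyz2 (lysozyme, distance 0.25), Gpd1 (glycerol-3-phosphate dehydrogenase, 0.28), Cd163 (the haemoglobin scavenger receptor of macrophages, 0.32), Ccr3 (an eosinophil chemokine receptor, 0.34) and Blk (a Src-family kinase of B cells, 0.34). Lyz2 had 19100, 19354 and 13232 TPM in CKO and 26707, 27493 and 40358 TPM in WT. Like Itgad it was lowest in CKO 3 and highest in WT 3. In the widely used lysozyme-Cre line Cre sits in Lyz2, and whether this bears on the Lyz2 level was not tested. Of the members, Itgal was nearest at 0.54 and Icam1 farthest at 0.77. All distances use the same 6 libraries, and Itgad was chosen for its difference between the groups, so nearness to it includes that difference.

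**Figure D4:**
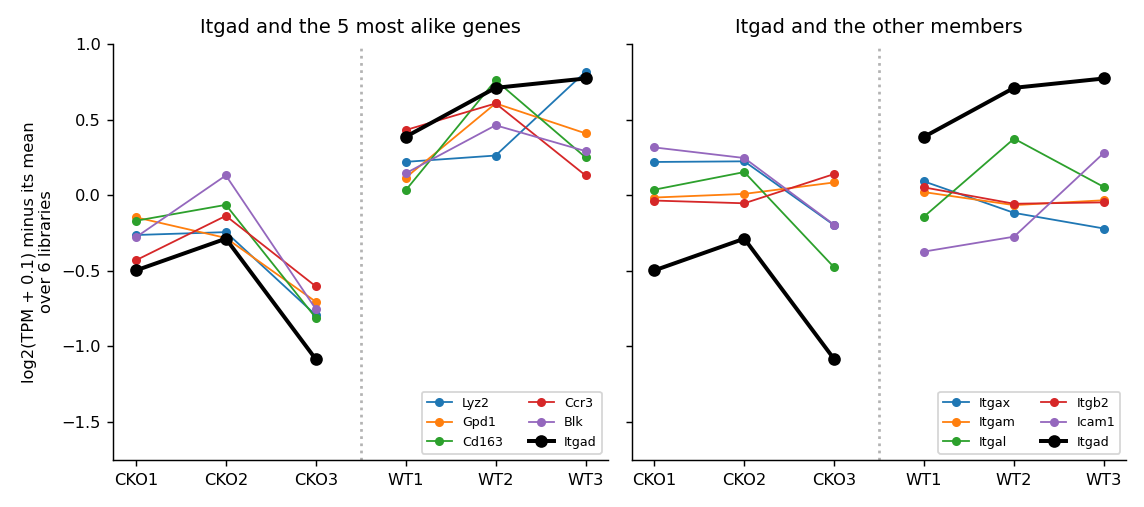
Log2(TPM + 0.1) minus its mean over the 6 libraries, for Itgad (black) with its 5 nearest genes on the left and with the other members on the right; lines join libraries of a group, CKO left of WT. The nearest genes, at distances of 0.25 to 0.34, are low in CKO 3 with Itgad, while Itgam and Itgb2 stay near 0.

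Most markers of resident macrophages had pooled log2 differences of the same sign as Itgad, without passing the limma test. Of 14 markers of resident and red pulp macrophages, 13 were tested and 0 passed the adjusted threshold of limma (0% of all genes tested did; 299 genes, 2.18%, had an unadjusted p under 0.05). Their pooled median log2 difference was -0.23, against 0.0026 over all genes, and 12 of 13 were negative. Groups did not overlap for 4, Vsig4, Timd4, Cd163 and Vcam1, against 5.12% of all genes tested. Within the sides of the principal component, Hmox1 was positive on both (0.07 and 0.14). Marco, Siglec1 and Folr2 had opposite signs on the sides. Slc40a1, positive when pooled, was negative on both (-0.03 and -0.27), as were the remaining tested markers. Vsig4, a complement receptor that binds the same iC3b as Mac-1, had 0.802, 0.993 and 1.04 TPM in CKO and 2.01, 4.20 and 2.15 TPM in WT. Timd4, a receptor for phosphatidylserine on dying cells, had 0.575, 0.738 and 0.909 TPM in CKO and 0.955, 2.08 and 1.91 TPM in WT. Cd163 had 3.66, 3.95 and 2.31 TPM in CKO and 4.23, 7.06 and 4.93 TPM in WT. Vsig4, Timd4 and Cd163 were highest in WT 2, while Itgad was highest in WT 3; Cd163 shared with Itgad its low in CKO 3, and Vsig4 and Timd4 were lowest in CKO 1. Spic, the transcription factor of red pulp macrophages, had a difference of -0.32 ± 0.52 and overlapping groups, and Clec4f, of Kupffer cells, was listed at 0 in every library but WT 2. The summed level of the list, led by Hmox1 and Slc40a1, was 3148 to 3591 TPM in CKO and 3229 to 4063 TPM in WT. In bulk RNA fewer cells of a type and less RNA per cell cannot be told apart.

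Levels of markers of other cells and signals are given here, since some were separated between the groups without passing the test; their part in the Itgad difference was not tested. Nonoverlapping groups were seen for 5.12% of all genes tested. Of 12 listed T and NK cell markers 8 passed the filter on low values, which the CKO libraries alone can meet, and 7 of them had groups that did not overlap, with summed levels of 4.43 to 7.34 TPM in CKO and 2.74 to 2.94 TPM in WT. Of the interferon gamma response genes this held for 10 of 12, all higher in CKO, with sums of 792 to 1101 TPM in CKO and 537 to 667 TPM in WT. B cell markers had negative log2 differences in 8 of 8, with 2 nonoverlapping and sums of 150 to 245 TPM in CKO and 224 to 253 TPM in WT. Markers of eosinophils, basophils and mast cells had sums of 63.4 to 68.3 TPM in CKO and 61.9 to 81.0 TPM in WT. Macrophage identity genes, led by Lyz2, had sums of 17220 to 24510 TPM in CKO and 31620 to 45780 TPM in WT. Of these 8 genes Lyz2 alone, which holds Cre in the widely used line, had nonoverlapping groups. Their median log2 difference was 0.01, with 5 positive and 3 negative. Sums overlapped for dendritic cells (260 to 330 TPM in CKO, 246 to 352 TPM in WT), neutrophils (7106 to 8254 TPM in CKO, 5924 to 8647 TPM in WT) and NF-kB targets (851 to 3340 TPM in CKO, 739 to 2459 TPM in WT). None of the markers in these lists was at 0 in all libraries. No marker passed the adjusted threshold of limma, which 0 of all 13722 genes tested did. The authors' deposited table does call the listed markers Lyz2 and Vsig4 lower in CKO. Its calls of genes higher in CKO are not listed here.

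No gene of the machinery that switches beta-2 integrins on was called, but limma called 0 of all 13722 genes tested. The absence of calls therefore does not set these lists apart from other genes. Of 19 tested genes for integrin activation 0 passed the limma test in either direction, and their median log2 difference was 0.02. Tln1, which encodes talin, differed by -0.08 ± 0.12, and Fermt3, which encodes kindlin-3, by 0.03 ± 0.11. Rap1b, the small GTPase that recruits talin and the most abundant of the list, had 846, 920 and 1093 TPM in CKO and 949, 941 and 815 TPM in WT. Of 23 tested signalling genes 0 passed, with a median of -0.01. Tyrobp, the adaptor DAP12 that couples beta-2 integrins to Syk, had 2625, 2675 and 1913 TPM in CKO and 2253, 2171 and 2773 TPM in WT, low in CKO 3 and overlapping. Neither list had a gene with an unadjusted p under 0.05, which 2.18% of all genes tested had.

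Among other tested integrins and ligands 4 genes had separated groups, against a share of 5.12% over all genes tested. None passed the limma test, which called 0 of all 13722 genes tested. Of 16 tested integrin subunits outside the family the median was -0.06, and Itga2, a collagen receptor chain, was the 1 with nonoverlapping groups, at 0.705, 0.519 and 0.557 TPM in CKO and 0.828, 0.846 and 1.07 TPM in WT. Itgb1, the most abundant, had 497, 523 and 582 TPM in CKO and 517, 578 and 494 TPM in WT. Of 9 tested ligands, 3 had nonoverlapping groups and the median was -0.12. Vcam1, the ligand of the integrin VLA-4 and, in human, of the Itgad receptor, had 22.3, 22.1 and 17.1 TPM in CKO and 23.2, 44.0 and 36.7 TPM in WT. Fn1, fibronectin, had 2.04, 1.84 and 2.07 TPM in CKO and 2.40, 3.80 and 2.63 TPM in WT. Thy1, a counter-receptor of Mac-1 in human, had 0.292, 0.463 and 0.617 TPM in CKO and 0.272, 0.0741 and 0.0403 TPM in WT. Its levels are low, and its CKO libraries alone meet the filter on low values, so its place among the separated genes depends on the group where it is high. C3, the source of iC3b, had 49.5, 46.9 and 43.6 TPM in CKO and 39.6, 30.5 and 50.4 TPM in WT, and its groups overlapped.

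**Figure D5:**
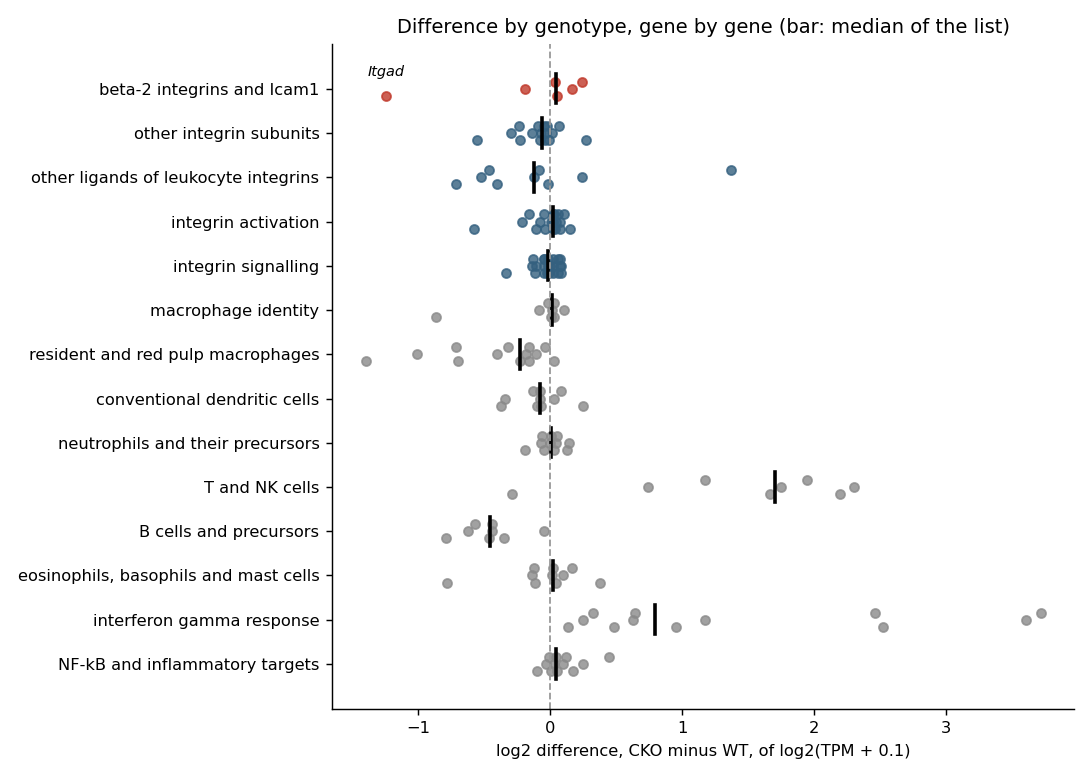
Log2 difference between CKO and WT of every tested gene in the pathway and marker lists (points), with the median of each list as a bar; the dashed line is at 0. Activation and signalling genes have medians of 0.02 and -0.01, resident macrophage markers -0.23, interferon gamma response genes 0.80 and T and NK cell markers 1.71.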

How the data were processed

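Per the labels, strand-specific total RNA libraries were made from 4 µg of DNase-treated RNA. Per the submitters' processing notes the build was mm10, and the tools included TopHat2 2.0.12, featureCounts and Subread, FastQC 0.11.2, edgeR and Picard 1.127. The sources used here do not give the annotation or the counting options. The authors deposited TPM per gene and library, a unit read from the values, which sum to 1000000. Per the file headers the table also holds the authors' log2 fold change, mean log2 CPM, a likelihood ratio score, p-value and adjusted p-value. A positive fold change means higher in CKO, from the values.

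Whole reads were recovered from the TPM ratios between libraries: 94031 of 94034 values above 0 came out whole (99.997%, within 0.01 read). No count test was the main one. The 13722 genes that reached 0.1 TPM in 3 or more libraries were fitted with limma 3.58.1 in R 4.3.3, with a mean-variance trend, on log2(TPM + 0.1), with Benjamini-Hochberg adjustment and a threshold of 0.05, two-sided; limma-voom on the recovered reads was an alternative. It called 0 genes, and 312 (2.27%) had an unadjusted p under 0.05. The authors' deposited table calls 46 genes (0.265%). The fit and the read recovery were tested on simulated data. With 3 libraries a group, exact permutation cannot give a p below 0.1. The ± of a log2 difference is its SE, and of a level the SD.

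The members and gene lists were chosen with earlier results of these data known. Genes were named by a rule: the members, the 5 genes nearest to Itgad, of each pathway list the 3 smallest p-values and the most abundant gene, of each marker list the 2 most abundant, and Vsig4 and Timd4; not all are printed. Cd274, Csf1r, Emr1, Tln1, Fermt3, Spic, Clec4f, Tgfb1i1, Cox6a2 and 4931431B13Rik were named after their values were seen. Sequences are from RefSeq (GRCm38.p6) and, for coding sequence, from the GENCODE M21 transcripts of the same build.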

Additional observations from a re-analysis of the deposited data

How the results depend on the processing

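Under 16 alternatives the Itgad difference stayed negative. It lay between -1.41 and -0.94 except with a pseudocount of 1 TPM, where it was -0.74, since that pseudocount is close to the level of the gene. With libraries left out in turn it lay between -1.41 and -1.01. The number of genes past the adjusted threshold was 0 in 15 alternatives and 1400 without CKO 3 and WT 3 together, when genotype and the side of the principal component coincide and cannot be told apart. In that fit 4 of 16 other integrin subunits, 3 of 19 activation genes, 2 of 23 signalling genes and 0 of 9 ligands passed. These counts stand beside the 1400 of 13722 genes tested. The Icam1 difference in that fit was 0.60. Against 299 genes with an unadjusted p under 0.05, there were 487 with no filter, 168 with a filter of 1 TPM, 1042 with a term for the side, 1017 without WT 3 and 4258 without CKO 3 and WT 3 together. With 5 libraries the order of levels gave an adjusted exact permutation p of 0.0625 for every neighbouring pair, the smallest that 5 allow. Same-numbered libraries did not deviate together (correlations of -0.24, -0.15 and -0.53), and the numbers were not treated as a pairing. These correlations cannot exclude a pairing, since deviations from a mean of 3 libraries depend on each other. With the replicate block 0 genes passed, 232 had an unadjusted p under 0.05, and Itgad differed by -1.25. Depth limits the Itgad value of CKO 3, which rests on 53 reads.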
